A study of Mus musculus with 48 samples.

Results

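Kupffer cells are the macrophages that live in the liver. Cultures of them were kept for 3 days with CD146 cells and compared with cultures kept in MCSF alone. The comparison rests on 6 of the 48 arrays of the series, 3 of each group, and covers all 19505 genes that a probe set named. Every culture came from BALB/c male mice, whose liver macrophages had been sorted magnetically by the F4/80 antigen and held for 1 day in MCSF, the macrophage colony-stimulating factor. One group then spent 3 days with CD146 cells, the study's endothelial cells of the liver sinusoids (CD146 is a surface protein of endothelium). The control stayed in MCSF, for 4 days in all. Times of 1 and 3 days count from the end of the first day in MCSF. Each control used here, of either time and cell type, thus had 1 day more in MCSF than its time says. Groups used here for reference were Kupffer cells given Ito cells (hepatic stellate cells) or HGF (hepatocyte growth factor) for 3 days. The CD146 and MCSF cultures of 1 day served as reference too. So did macrophages grown from CD115-sorted blood monocytes of mice of the same strain and sex, with and without CD146 cells for 3 days. Each group held 3 arrays, called biological replicates in the titles without a mouse or culture being named. Every p therefore measures only the spread between arrays within groups, which the fit pools over all 48 arrays of the series. The labels do not tell whether the added cells touched the macrophages or were taken out before lysis, or whether MCSF stayed in the medium beside them.

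In the liver, Kupffer cells sit inside the sinusoids against the endothelium, and the endothelial and stellate cells of this niche are known to keep up their identity through Notch ligands, TGF-beta and BMP ligands and colony-stimulating factor 1. Kupffer cells clear particles and bacteria with scavenger receptors and complement, recycle iron and handle lipids through the nuclear receptor LXR alpha. In culture they tend to lose identity genes, and macrophages exposed to microbial products or cytokines switch on NF-kB and interferon programmes.

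Values are log2 signals, on which a difference of 1 is a doubling, and are given for each array in replicate order or as mean ± SD (n = 3). Differences are group means with the SE of the limma fit to all arrays. The words rose, fell, higher and lower are used of genes only where the adjusted p was under 0.05 by limma. The negative control probe sets, which match no transcript, had a median of 5.42 in the MCSF control and 5.17 with CD146 cells. Where one group's mean lay under that median, the size is given as at least the log2 distance of the brighter group from it, and where both did, there is no measured level. Genes named to fill out a list's smaller side (Mvd, Acaca, Acly, C3ar1, Cd55, Serping1, C5ar2, Tnfsf9, Il1r1, Il6st, Ifnb1, Cd36, Mrc1, Clec10a and Pcolce2) were picked after their values were seen. The replicates of both groups correlated with each other at 0.986 or more over all genes. Elsewhere in the series, 3 arrays stood apart from their groups: replicate 1 of the Kupffer control of 1 day, replicate 2 of Kupffer cells with HGF for 1 day and replicate 3 of the monocytic control of 3 days. Differences between responses, which use the first or the last of these, are given with and without it here or among the closing observations.

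Some macrophage transcripts were abundant in both groups. Of 16 genes shared by most macrophages, however, 12 were lower with CD146 cells and none higher, against 12.4% and 14.0% of all genes. Spi1, the transcription factor that directs the myeloid lineage, measured 18.67 ± 0.17 in the control and 18.93 ± 0.09 with CD146 cells, and Csf1r, the MCSF receptor, 17.64 ± 0.29 and 16.52 ± 0.06. Clec4f, the lectin that defines Kupffer cells in the mouse, lay below the negative controls in both, at 3.37 ± 0.08 and 3.22 ± 0.10. Mcam, the gene of CD146 itself, and Stab2 and Lyve1, which define sinusoidal endothelium, were also below them in both groups. Their list of 29 measured endothelial genes held 9 that were higher with CD146 cells and 1 lower, against 14.0% and 12.4% of all genes.

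With CD146 cells, 2729 genes were higher (14.0% of those tested) and 2418 lower (12.4%), 5147 in all (26.4%), by limma. Every count of listed genes against the control is to be set beside these shares, 14.0% higher and 12.4% lower. A count near its share is not a result about its list. The median difference over all genes was 0.01. The groups did not overlap for 8266 genes (42.4%), and 5036 genes (25.8%) both passed and did not overlap. At 2-fold or more, 1981 were higher (10.2%) and 1812 lower (9.29%). Of the 5147, 889 had 1 group below the negative controls and 486 had both below. The 15 largest rises held 7 genes of cell division, the monocyte chemokines Ccl2 and Ccl7 and the keratin gene Krt7. The 15 largest falls held Cxcl13, both interleukin-1 genes, Ccl5, the complement genes Cfb and C1qa and the apolipoprotein gene Apoe.

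**Figure D1:**
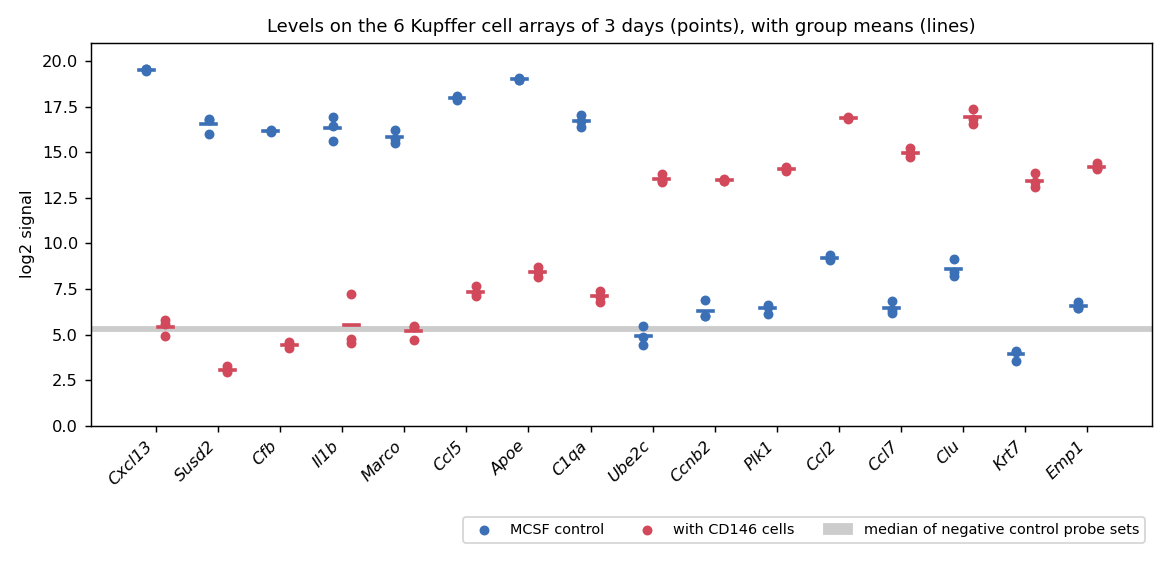
Levels of 16 genes on the 3 MCSF control arrays (blue) and the 3 arrays with CD146 cells (red), as log2 signal, with group means as lines and the negative control medians in grey. Cxcl13 goes from 19.51 in the control to 5.42 with CD146 cells. The rule for the largest rises and falls took only genes without overlap between the groups, and 42.4% of all genes had none.

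The cell cycle list rose almost as a whole: 27 of its 28 measured genes were higher, none was lower, and the median difference was 4.99, against 0.01 over all genes. Ube2c, which loads ubiquitin onto mitotic cyclins, measured 4.43, 4.87 and 5.48 in the control and 13.78, 13.38 and 13.40 with CD146 cells. The control was below the negative controls on average, so the difference of 8.59 ± 0.76 is at least 8.09. Ccnb2, a mitotic cyclin, stood at 6.29 ± 0.51 against 13.45 ± 0.06, a difference of 7.16 ± 0.68 (adjusted p = 2.23e-11). Every CD146 array was far above every control array for both genes. Plk1, the kinase that drives entry into mitosis, rose from 6.43 ± 0.25 to 14.07 ± 0.10, and Ccna2, the cyclin of S phase and G2, from 5.40 ± 0.36 to 13.28 ± 0.09, at least 7.85. Genes of DNA synthesis rose as well: Rrm2, a subunit of ribonucleotide reductase, by 7.38 ± 0.69, Pcna, the sliding clamp of replication, by 3.90 ± 0.31, the helicase subunit Mcm4 by 4.72 ± 0.41 and the replication licensing gene Cdc6 by at least 3.46. Cdc20, an activator of the anaphase-promoting complex, measured 3.75, 3.36 and 3.40 and then 8.69, 8.58 and 8.18, at least 3.06 higher. Bub1, a checkpoint kinase, and Cdca3, a gene of mitotic entry, rose by at least 6.30 and 7.52. E2f1, a transcription factor of the S phase programme, was the member that did not pass, at 7.73 and 8.09. In such bulk arrays more cells of a type and more RNA per cell cannot be told apart, here and in every result that follows.

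Many promoters of this list hold the letters of known cell cycle elements, and 5 of genes that rose together are shown. Only windows that hold an element were printed, so its presence in these 5 is not a result. Windows of 250 bases before the start came from RefSeq (GRCm38.p6), and 24 of the 32 listed genes were measured and had a window. The CCAAT box (CCAAT, or ATTGG on the other strand) occurred in 19 of the 24 genes, 79.2%, against 39.2% of the 15691 genes tested that had a window. The cell cycle homology region (TTTGAA, or TTCAAA), at which repressor complexes silence mitotic genes in resting cells, occurred in 9 of the 24, 37.5%, against 16.1%. Both elements were in the same window for 9 of the 24 (37.5%) and for 5.95% of all genes. A match describes letters in the window and does not show that a protein binds there. The list holds known cell cycle genes, so these shares describe the list and are no test of the response to CD146 cells. In the stretches printed, on the strand of the gene, capitals mark matches to either element, and in Ube2c 1 pair of CCAAT boxes on opposite strands overlaps. They come from chr9:70421561-70421731 (minus strand), chr4:118437344-118437406 (minus), chr2:164769691-164769915 (plus), chr12:24708194-24708218 (plus) and chr7:122159411-122159434 (plus).
Ccnb2: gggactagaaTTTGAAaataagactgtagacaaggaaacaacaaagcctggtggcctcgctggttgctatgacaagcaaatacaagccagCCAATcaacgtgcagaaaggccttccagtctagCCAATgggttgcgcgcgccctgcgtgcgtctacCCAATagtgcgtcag
Cdc20: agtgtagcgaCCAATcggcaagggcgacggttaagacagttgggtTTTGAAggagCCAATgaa
Ube2c: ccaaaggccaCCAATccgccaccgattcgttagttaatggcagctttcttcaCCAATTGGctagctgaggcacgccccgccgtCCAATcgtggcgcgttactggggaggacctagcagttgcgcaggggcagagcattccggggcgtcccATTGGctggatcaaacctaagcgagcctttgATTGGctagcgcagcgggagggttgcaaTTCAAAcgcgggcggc
Rrm2: tcagcggcgtCCAATgggaggcgag
Plk1: atccccgcggCCAATcagcaacgc
Ccnb2 holds 3 CCAAT boxes in 1 orientation, whereas Cdc20 has the homology region between a pair of them and ends at the base before the start. For Rrm2 and Plk1 these windows hold the CCAAT box without the homology region.

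Genes of cholesterol synthesis were mostly higher, 11 of 15 measured, with Mvd, the decarboxylase before Idi1, lower (-1.17 ± 0.28) and a median difference of 1.31. Sqle, squalene epoxidase, measured 5.21, 5.84 and 5.60 in the control and 9.51, 9.46 and 8.96 with CD146 cells (3.76 ± 0.32, adjusted p = 8.99e-13). The groups did not overlap. Idi1, an isomerase early in the isoprenoid pathway, rose by 3.26 ± 0.35, the prenyl transferase gene Fdps by 2.17 ± 0.31 and the sterol demethylase gene Cyp51 by 2.60 ± 0.38. Hmgcs1, the synthase at the head of the pathway, rose by 1.74 ± 0.36 and Fdft1, squalene synthase, by 1.95 ± 0.30. The 3 members that did not pass were Insig1, a sensor that holds the pathway back, at 9.46 and 10.19, Mvk at 5.29 and 5.62 and Dhcr7 at 9.49 and 9.27. Among 10 genes of fatty acid synthesis, 4 rose, led by the elongase Elovl6 (3.80, 4.14 and 4.50, then 10.17, 10.28 and 10.25, at least 4.81 higher) and the desaturase Fads2 (6.68 to 11.43). Acaca and Acly, which make malonyl-CoA and acetyl-CoA, fell (-1.02 ± 0.38 and -0.98 ± 0.37), calls that were lost when single arrays were left out, with an adjusted p of up to 0.184 and 0.163. A CCAAT box, next to which sterol response elements often lie in these genes, was in the window of all 12 measured cholesterol genes that had one, against 39.2% of all genes. Among them were Mvd, which fell, and Insig1, Mvk and Dhcr7, which did not pass, whereas Sqle, Fdps and Fdft1 had no window. The share therefore describes the list and not the rise. Idi1, at chr13:8885551-8885605 on the plus strand, has a pair of boxes in reverse orientation, and Cyp51, at chr5:4104712-4104736 on the minus strand, has 1 in forward orientation. Capitals mark them.
Idi1: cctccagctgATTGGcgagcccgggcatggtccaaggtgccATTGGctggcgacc
Cyp51: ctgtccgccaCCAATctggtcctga

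Chemokines split: 7 of 24 rose and 9 fell. Cxcl13, which draws B cells into follicles, showed the largest fall of the genes named here. It read 19.54, 19.57 and 19.42 in the control and 5.77, 4.92 and 5.55 with CD146 cells, a difference of -14.09 ± 0.71 (adjusted p = 2.69e-19). The control values lie near the upper end of the scale, which stops at 19.93, and the CD146 values near the negative controls. Ccl5, which attracts T cells, fell from 17.98, 18.06 and 17.84 to 7.65, 7.27 and 7.11. Cxcl9, an interferon-induced attractant of T cells, fell from 9.40 to 4.01 (at least 4.23), and Cxcl16, a membrane-bound chemokine that also takes up oxidised lipoprotein, fell as well (-5.28 ± 0.24). Ccl2 and Ccl7, ligands of Ccr2, rose. Ccl2, the main attractant of monocytes, read 9.20, 9.07 and 9.35 and then 16.93, 16.83 and 16.85 (7.67 ± 0.58), and Ccl7 6.33, 6.20 and 6.81 and then 14.75, 14.95 and 15.22 (8.53 ± 0.65). Ccr2, the receptor of Ccl2 and Ccl7 on monocytes, rose from 6.24 ± 0.37 to 12.11 ± 0.24. Cxcl10 (10.92 and 11.95), Ccl3 (15.09 and 15.50) and Cxcl1 (7.02 and 6.55) did not pass.

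Inflammatory cytokines and their NF-kB regulators were mostly lower, 12 of 20, with 1 higher. Il1b, the secreted interleukin-1, read 15.59, 16.42 and 16.92 in the control and 4.55, 7.24 and 4.78 with CD146 cells (-10.79 ± 0.72, adjusted p = 1.23e-15). Replicate 2 with CD146 cells was above the other two and still far below every control array. Il1a, its partner ligand, read 14.88, 13.48 and 13.62 and then 4.36, 4.35 and 3.85, a fall of at least 8.82. Nfkb2 and Relb, which form the dimer of the alternative NF-kB pathway, fell from 9.72 to 5.95 and from 7.18 to 4.64 (at least 2.01), and Tnfaip2, a target of tumour necrosis factor, fell as well (-3.96 ± 0.45). Il10, the anti-inflammatory cytokine, was the member that rose, from 4.42 to 7.02 (at least 1.60). Tnf did not pass (adjusted p = 0.0558): its values were 12.50, 11.51 and 11.40 in the control and 13.13, 15.96 and 12.91 with CD146 cells, with no overlap but a wide spread. Il6 was near the negative controls in both groups, at 5.91 ± 0.70 and 5.11 ± 0.48, and Ptgs2, the inducible cyclooxygenase, stood at 10.63 and 11.48 without passing.

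Of the receptors and kinases upstream of these responses, more genes were lower than higher. The counts that rose were near the share of all genes, 14.0%, so they are not results about the lists. Of 16 genes of Toll-like receptors and their signalling, 8 fell and 2 rose. Tlr2, the receptor of bacterial lipoproteins, fell (-4.74 ± 0.40), and so did its partner Tlr1 (-4.46 ± 0.46) and Irak3, an inhibitor of the pathway (-4.53 ± 0.35). Tlr13, a sensor of bacterial ribosomal RNA, rose by 1.86 ± 0.28 and Tlr5, the flagellin receptor, from 3.82 to 7.06 (at least 1.63). Tlr4, the endotoxin receptor, did not pass, at 12.76 and 13.38. Among 28 genes of interleukin receptors and JAK-STAT signalling, 14 fell and 3 rose, namely Il1r1, the interleukin-1 receptor (2.30 ± 0.36), Il6st, the shared subunit of interleukin-6 receptors (1.35 ± 0.31), and Ifnb1, below the negative controls in both groups and with an adjusted p of 0.0932 without replicate 3 of the control. The kinase gene Jak2 fell from 14.13, 14.57 and 15.05 to 10.28, 10.10 and 10.01, and the receptor subunits Il10ra (-3.40 ± 0.35), Ifnar2 (-2.73 ± 0.24) and Ifngr2 (-2.04 ± 0.21) fell as well.

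Interferon-stimulated genes were mostly lower, 15 of 25 measured, with 2 higher and a median difference of -1.09. Gbp2, a guanylate-binding protein that attacks intracellular microbes, read 15.35, 15.45 and 14.95 in the control and 9.89, 9.79 and 9.63 with CD146 cells (-5.48 ± 0.40). Its relative Gbp3 (-3.70 ± 0.32), the virus tether Bst2 (-3.11 ± 0.47), Irf7, the factor that amplifies interferon alpha (-2.90 ± 0.51), and the viral RNA sensor Ddx58 (-1.89 ± 0.33) fell as well. Cmpk2, a mitochondrial nucleotide kinase, went against the list, from 9.40 to 11.90, and so did its genomic neighbour Rsad2 (9.08 to 10.33), the antiviral viperin, which was picked after its values were seen. The call of Rsad2 was lost with each of the 6 arrays left out in turn (adjusted p from 0.0595 to 0.102) and with median centring (0.0652). Irf9 (9.16 and 8.86) and Usp18 (13.19 and 13.37) did not pass. The core of the interferon response element (GAAA, any 2 bases, GAAA, on either strand) was sought in the 21 measured genes of the list that had a window. It occurred in 12 of them, 57.1%, against 3.47% of all genes. The stretches printed are those of 3 genes named before and, picked after their values were seen, of Rsad2 and Isg15 (7.51 to 6.20), a ubiquitin-like modifier with overlapping matches. They lie at chr3:142620594-142620623 (plus strand), chr3:142559989-142560024 (plus), chr8:71537577-71537612 (minus), chr4:156200865-156200906 (minus) and chr12:26456553-26456582 (minus), with matches in capitals.
Gbp2: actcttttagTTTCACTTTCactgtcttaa
Gbp3: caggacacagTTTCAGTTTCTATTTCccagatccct
Bst2: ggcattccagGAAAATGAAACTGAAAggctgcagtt
Isg15: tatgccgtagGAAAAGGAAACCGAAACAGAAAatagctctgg
Rsad2: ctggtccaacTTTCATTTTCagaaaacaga
Only windows that hold the element were printed, so its presence in these 5 stretches is not a result. The share of 57.1% describes a list of known interferon genes and is no test of the response to CD146 cells. Stat2 and Irgm1, for example, hold the element and did not pass.

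Genes of antigen presentation were mostly lower. Of 11 genes of the class I pathway, 10 were lower and none higher. H2-K1, a heavy chain, read 17.71, 17.58 and 17.64 and then 14.84, 15.41 and 15.35, Psmb9, a subunit of the immunoproteasome, fell (-2.66 ± 0.37) and Tapbp, which loads peptides, fell as well (-2.96 ± 0.47). B2m, the light chain, did not pass, at 19.78 and 19.60, close to the upper end of the scale. Of 15 genes of class II and costimulation, 9 were lower and 1, the costimulatory ligand Tnfsf9, higher (1.81 ± 0.45, adjusted p = 0.0524 without replicate 2 of the CD146 group). H2-Ab1 read 14.10, 14.67 and 14.55 and then 8.85, 8.15 and 8.57, and Cd274, the checkpoint ligand PD-L1, 15.66, 16.03 and 16.07 and then 10.02, 11.03 and 10.49. Cd40, the receptor through which T cells activate macrophages, fell from 8.47 to 5.27 and the costimulatory ligand Icosl fell as well (-3.42 ± 0.50). Ciita, the regulator of class II transcription, was below the negative controls in both groups.

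**Figure D2:**
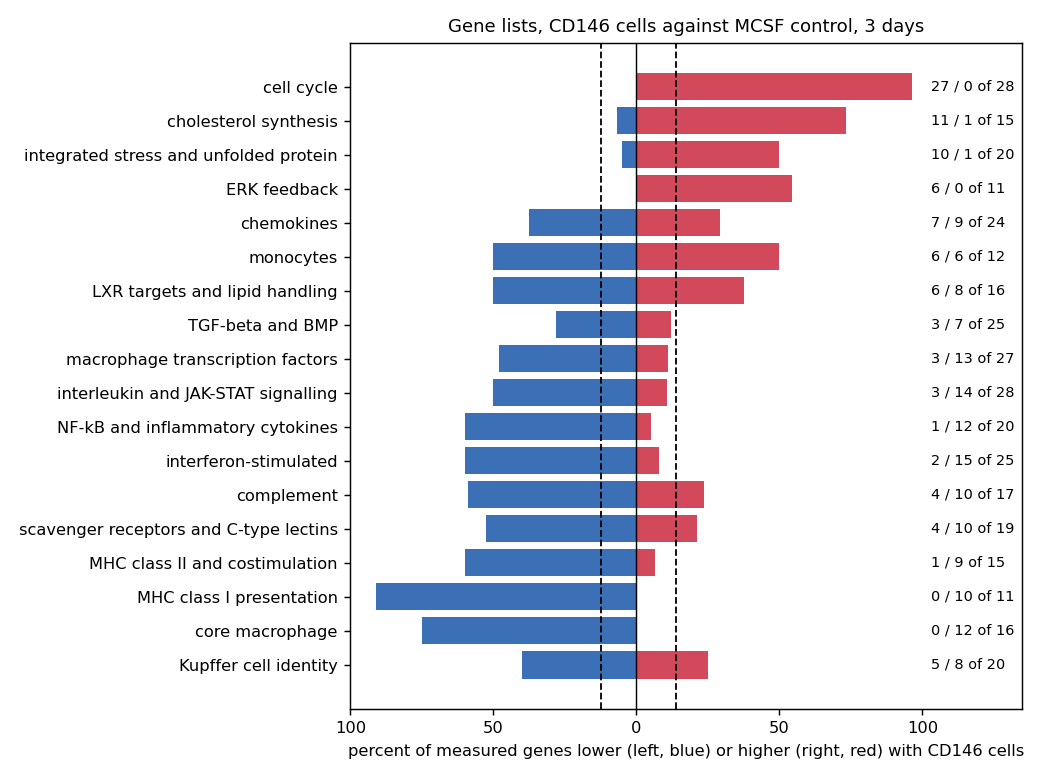
Share of the measured genes of 18 lists that were higher (red, to the right) or lower (blue, to the left) with CD146 cells than in the MCSF control at 3 days, with the counts higher / lower at the right edge and the shares over all genes (14.0% higher, 12.4% lower) as dashed lines. The cell cycle list is nearly all on the right, and the class I presentation list has 10 of 11 on the left.

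Complement genes were mostly lower, 10 of 17, with 4 higher. The latter were the receptors C3ar1 (1.15 ± 0.22) and C5ar2 (0.96 ± 0.31, adjusted p = 0.0515 to 0.0591 without replicate 2 of the CD146 group or replicate 1 or 2 of the control), Cd55, which protects cells from complement (2.31 ± 0.47), and Serping1, the C1 inhibitor (1.31 ± 0.29). Cfb, a protease of the alternative pathway, read 16.22, 16.10 and 16.14 in the control and 4.57, 4.48 and 4.25 with CD146 cells, a fall of at least 10.98. C1qa, which starts the classical pathway and tags dying cells, read 17.04, 16.40 and 16.70 and then 6.81, 7.08 and 7.39 (-9.62 ± 0.67). The other chains fell too, C1qc with -5.19 ± 0.48 and C1qb with -3.76 ± 0.49. C4b fell from 12.46 to 5.55 and C2 from 6.98 to 4.05 (at least 1.80). C5ar1, the anaphylatoxin receptor, did not pass, at 12.91 and 13.35.

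Of 20 genes of Kupffer cell identity, 8 fell, 5 rose and 7 did not pass, so the list had no single direction. Vsig4, the complement receptor of Kupffer cells, read 10.60, 9.48 and 9.72 in the control and 3.65, 3.41 and 3.70 with CD146 cells, a fall of at least 4.76. Marco, a scavenger receptor for bacteria, went from 16.24, 15.49 and 15.75 to 4.72, 5.47 and 5.41 (-10.63 ± 0.71). Both genes were without overlap. Spic, the factor that serves red pulp and other iron-recycling macrophages, fell from 10.52 ± 0.20 to 4.65 ± 0.84 (at least 5.34), Nr1h3, which encodes LXR alpha, from 11.41 ± 0.07 to 6.85 ± 0.19, and Timd4, a receptor for dying cells on embryonically derived macrophages, from 9.60 ± 0.47 to 5.77 ± 0.07. Id3, a factor needed for Kupffer cell development, rose from 5.73, 5.89 and 6.33 to 9.09, 9.39 and 8.58 (3.04 ± 0.68). Cd5l, a secreted scavenger protein, did not pass, with 7.62, 7.84 and 8.47 in the control and 7.83, 8.05 and 8.20 with CD146 cells, nor did Folr2, a folate receptor, at 10.48 and 11.06. Cdh5, listed here and among the endothelial genes, rose by at least 1.17, and the other risers were Id1, the iron exporter Slc40a1 and Pcolce2 (3.91 and then 5.41).

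Genes shared by most macrophages were mostly lower, 12 of 16 with none higher, and the mean level of the list lay at 16.59 to 16.93 on the control arrays and 13.75 to 13.87 with CD146 cells. Adgre1, the gene of the F4/80 antigen used for sorting, read 17.60, 17.36 and 16.71 and then 13.46, 13.19 and 13.37 (-3.88 ± 0.30). Mertk, which engulfs dying cells, fell from 12.88 ± 0.41 to 5.74 ± 0.16 and Aif1, an actin-bundling protein of macrophages, from 15.38 ± 0.36 to 7.15 ± 0.27. Csf1r fell (-1.12 ± 0.23). The 4 that did not pass were Spi1, Fcer1g, Fcgr1 and Cd14, the last at 14.64 and 14.69. Spi1 differed by 0.26 ± 0.16 (adjusted p = 0.296 by limma), with both means near the upper end of the scale, which stops at 19.93. Monocyte genes split evenly, 6 up and 6 down of 12: besides Ccr2, S100a4 rose by 6.13 ± 0.68 and Plac8 by 3.93 ± 0.46, whereas the acute phase gene Hp, haptoglobin, fell from 16.89 to 7.35, and so did the integrin gene Itgal (-6.81 ± 0.32) and Ly6c2, a surface marker of inflammatory monocytes (-2.01 ± 0.47).

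Of 16 LXR target and lipid handling genes, 8 fell and 6 rose. Apoe, the apolipoprotein that macrophages secrete with cholesterol, read 18.97, 18.94 and 19.08 in the control and 8.69, 8.13 and 8.45 with CD146 cells (-10.57 ± 0.31, adjusted p = 2.89e-27). Abca1, the pump that loads cholesterol onto such particles, read 16.58, 16.04 and 16.03 and then 7.68, 7.96 and 8.36. Both fell on every array. Pparg, a nuclear receptor of lipid uptake and storage, rose from 4.43, 3.77 and 4.62 to 10.36, 10.06 and 10.03, at least 4.72 higher, and with it Lpl, lipoprotein lipase, by 4.49 ± 0.43 and Plin2, the coat protein of lipid droplets, by 3.48 ± 0.22. Of 19 scavenger receptors and C-type lectins, 10 fell and 4 rose, among them the fall of Clec4n, which recognises fungal mannans (17.26 to 11.41), and the rise of Scarb1, the receptor of high-density lipoprotein (8.86 to 11.37). The other three were Cd36, a fatty acid and lipoprotein receptor (1.61 ± 0.21), Mrc1, the mannose receptor (3.05 ± 0.52), and Clec10a, a galactose lectin (1.10 ± 0.29). Of 21 acute phase and iron genes, 9 fell and 4 rose: Lcn2, which binds bacterial siderophores, read 18.93, 19.28 and 19.28 and then 9.31, 9.76 and 10.47, whereas the iron exporter Slc40a1 rose from 7.45 to 11.93.

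Of the 9 measured genes of the arginine and nitric oxide list, 6 fell and 2 rose. Slc7a2, an arginine transporter of activated macrophages, read 14.45, 15.45 and 15.57 and then 4.98, 5.26 and 4.96, a fall of at least 9.98. Arg1, arginase of alternative activation, fell from 8.25, 9.83 and 10.62 to 4.72, 5.04 and 3.74 (at least 4.39) and Nos2, the inducible nitric oxide synthase, from 6.70, 8.28 and 8.03 to 4.28, 4.04 and 4.55 (at least 2.49), so both enzymes that compete for arginine were below the negative controls with CD146 cells. Odc1, which makes polyamines, and Slc7a1, a housekeeping arginine transporter, rose by 3.53 ± 0.44 and 3.15 ± 0.42.

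Transcription factors of macrophages were lower for 13 of 27 and higher for 3, against 12.4% and 14.0% of all genes. The count that rose was near its share. Beside Spic and Nr1h3, its dimer partner Rxra fell (-3.31 ± 0.30) and Mitf, a factor of lysosome and osteoclast genes, fell as well (-2.02 ± 0.23). Maf, which restrains macrophage division, did not pass at 9.73 and 9.68. In the TGF-beta and BMP list, 7 of 25 fell and 3 rose, against 12.4% and 14.0% of all genes. The count that rose was near its share here too, so it is not a result about the list. Id1, a target of BMP signalling, read 6.33, 6.63 and 7.25 and then 12.40, 12.09 and 12.32 (5.54 ± 0.67), and the ligand gene Bmp4 rose by at least 0.76 to 6.18. Ltbp1, which stores latent TGF-beta in matrix, fell from 11.75 to 5.53, the ligand Tgfb2 from 9.08 to 5.55 and the receptor gene Tgfbr1 fell as well (-2.08 ± 0.29). Tgfb1 did not pass, at 14.07 ± 0.25 and 14.01 ± 0.26, and Smad7, a feedback inhibitor of the pathway, was below the negative controls in both groups. Of 16 Notch genes, 3 fell and 2 rose, against 12.4% and 14.0% of all genes. In both groups 10 of them lay below the negative controls, among them the ligand Dll4 (4.00 and 4.10) and the target Hes1. Notch1, a receptor, fell from 7.29 to 4.77 (at least 2.11), and Rbpj, the DNA-binding factor of the pathway, rose by 1.33 ± 0.25.

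Growth factor genes moved in both directions. Csf1, the gene of MCSF, read 11.76, 12.99 and 13.09 in the control and 14.60, 14.26 and 14.32 with CD146 cells (1.78 ± 0.50, adjusted p = 0.00549); without replicate 1 of the control the adjusted p was 0.0642. Kitl, stem cell factor, rose by 3.45 ± 0.36, and Csf3r, the receptor of granulocyte colony-stimulating factor, fell from 13.46 to 5.65. Hgf fell (-1.26 ± 0.34) and its receptor gene Met did not pass, at 8.74 ± 0.61 and 9.34 ± 0.23. Among angiogenic factors, 6 of 19 rose and 4 fell: Angpt2, which loosens vessels, rose from 4.47 to 8.98 (at least 3.55) and the urokinase gene Plau by 2.99 ± 0.30, whereas Vegfa fell (-1.69 ± 0.37) and Thbs1, an inhibitor of vessel growth, fell as well (-3.23 ± 0.72). Feedback genes of ERK signalling were higher for 6 of 11 and lower for none, led by the phosphatases Dusp4 (5.42 to 8.94, at least 3.52) and Dusp5 (7.13 to 10.55).

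Of 14 genes of matrix proteases and their inhibitors, 8 fell and 3 rose. Mmp9, a gelatinase, read 10.89, 11.16 and 10.98 and then 3.47, 3.40 and 3.12, a fall of at least 5.84, Mmp2 fell from 11.93 to 5.87 and Mmp14, which activates it, from 15.55 to 8.64. Adam8 rose by 3.18 ± 0.37. Of 20 genes of the integrated stress and unfolded protein responses, 10 rose and 1 fell, and some of them serve serine synthesis: Psat1 rose from 7.91 to 12.70, Phgdh by 2.32 ± 0.33 and Shmt2, which passes serine carbon to folate, by 2.95 ± 0.31. The cystine transporter Slc7a11 fell (-4.93 ± 0.46). Of 16 NRF2 targets, 7 fell and 2 rose, with Mgst1, a membrane glutathione transferase, down (-5.13 ± 0.33) and Nqo1, a quinone reductase, up by 2.11 ± 0.35. The count that rose was near the share of all genes, 14.0%.

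Of 8 surface proteins of the Ly6 and Susd families, 4 fell and none rose. Susd2, a surface protein with a sushi domain, read 16.01, 16.78 and 16.81 in the control and 2.94, 3.06 and 3.25 with CD146 cells, a fall of at least 11.36. Its means with Ito cells (3.07), with HGF (3.10) and in the control of 1 day (3.36) were below the negative controls too, so among these cultures it was measured in the control of 3 days alone. Ly6i, a surface protein of the Ly6 family, fell from 17.61 to 6.63. Among the largest falls outside the lists were Acp5, the acid phosphatase of osteoclasts, from 16.89 to 7.26, Prg4, lubricin, from 13.84 to 3.81 (at least 8.66), and Adgb, androglobin, from 14.51 to 4.65 (at least 9.33). Emp1, an epithelial membrane protein, was among the largest rises and went from 6.44, 6.48 and 6.78 to 14.07, 14.13 and 14.42. Clu, the secreted chaperone clusterin, rose from 8.19, 8.44 and 9.13 to 17.39, 16.81 and 16.55, Lmo7, an actin-linked protein of epithelial junctions, from 3.64 to 11.75 (at least 6.33), Dhrs9, a retinol dehydrogenase, from 2.90 to 10.39 (at least 4.97), and Prl2c2, proliferin, from 4.16 to 11.32 (at least 5.89).

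Markers of other liver cells were measured beside these results. Of 29 genes of sinusoidal endothelium, 9 were higher with CD146 cells, 1 was lower (Fcgr2b, an Fc receptor, with -6.10 ± 0.40) and 17 were below the negative controls in both groups, 2 of the calls among them. Their mean level ran from 4.77 to 4.89 in the control, from 5.39 to 5.43 with CD146 cells and from 6.82 to 8.41 in the control of 1 day. Cdh5, the cadherin of endothelial junctions, read 3.03, 3.78 and 3.90 and then 6.70, 6.61 and 6.45 (at least 1.17 higher), and Kdr, the VEGF receptor, 4.45, 4.93 and 5.31 and then 7.65, 7.93 and 7.61 (at least 2.31 higher). Pecam1 did not pass, at 5.36 and 5.70. Cholangiocyte genes were higher for 4 of 6, with Krt7 at 4.12, 4.07 and 3.54 in the control and 13.86, 13.35 and 13.10 with CD146 cells (at least 8.01 higher), and Krt19 at 3.20 and 8.73. Both keratins were already present in the control of 1 day, at 9.63 ± 1.78 and 8.46 ± 1.77. Hepatocyte genes were higher for 3 of 18 and lower for 1 (Trf, transferrin, with -3.21 ± 0.47), against 14.0% and 12.4% of all genes. The count higher was near that share, so it is not a result about the list. Of the 18, 13 were below the negative controls in both groups, among them Ttr, Apoa1 and Cyp2e1. Apob rose from 4.22 to 9.35 (at least 3.92) and Alb, albumin, from 4.58 to 8.63 (at least 3.21). Of 10 neutrophil genes 4 rose and 4 fell, with the granule genes Ngp and Elane up to 9.31 and 8.99 from below the negative controls and Csf3r and Mmp9 down. Of 21 genes of Ito cells and fibroblasts 5 rose and 6 fell, and the mean levels overlapped (7.33 to 7.83 in the control, 7.59 to 7.86 with CD146 cells), with Dcn, decorin, up by 2.50 ± 0.48 and Cxcl12, a chemokine of stromal cells, by 2.85 ± 0.37. B cell, T cell and dendritic cell lists were mostly below the negative controls. In them 1 of 7, 2 of 11 and 2 of 11 genes were lower, against 12.4% of all genes, and none was higher. The part that RNA of such cells has in the results was not tested.

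**Figure D3:**
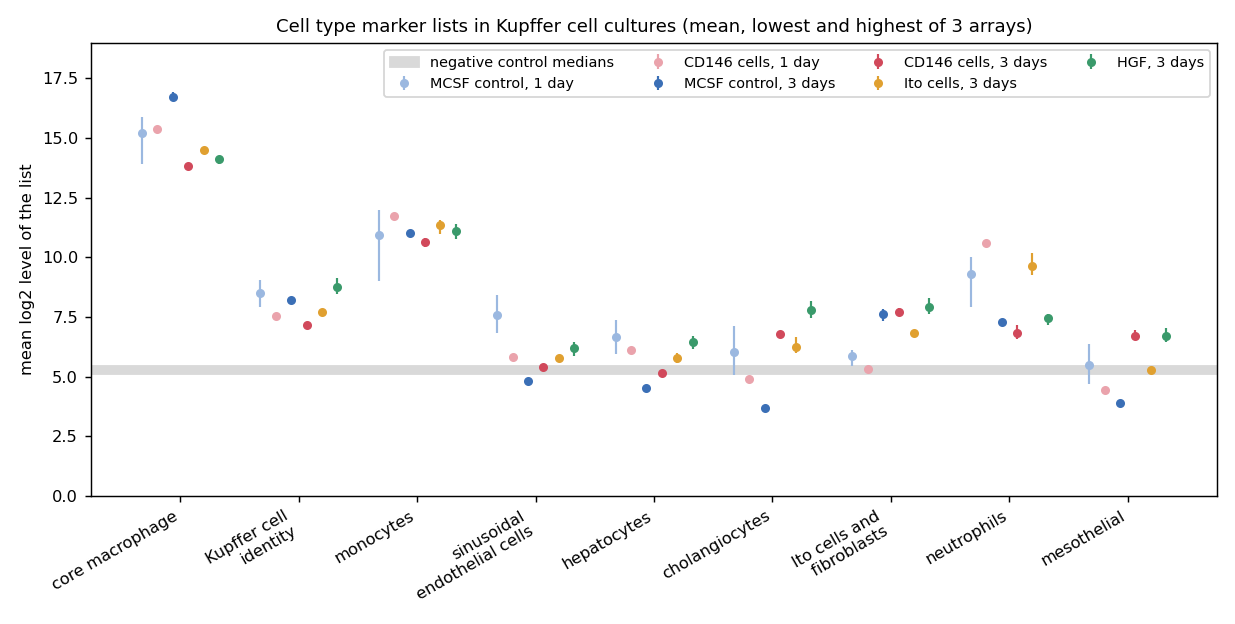
Mean log2 level of the measured genes of 9 marker lists in Kupffer cell cultures, as the mean with the lowest and highest of 3 arrays, with the negative control medians in grey. Core macrophage genes are lower with CD146 cells than in the control of 3 days, the cholangiocyte list is higher, and the mesothelial list was chosen after its values were seen.

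Ito cells and HGF were compared with the same MCSF control arrays, so resemblance between the 3 sets of differences comes in part from the arrays they share and is not a result. Side by side, the difference from the control was -14.09 ± 0.71 with CD146 cells, -13.95 ± 0.71 with Ito cells and -14.63 ± 0.71 with HGF for Cxcl13. For Il1b it was -10.79 ± 0.72, -10.60 ± 0.72 and -10.35 ± 0.72, for Ccl2 7.67 ± 0.58, 8.83 ± 0.58 and 7.85 ± 0.58, and for Ube2c 8.59 ± 0.76, 7.32 ± 0.76 and 8.59 ± 0.76. The direct comparisons, which use no control array, show where CD146 cells gave another level.

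**Figure D4:**
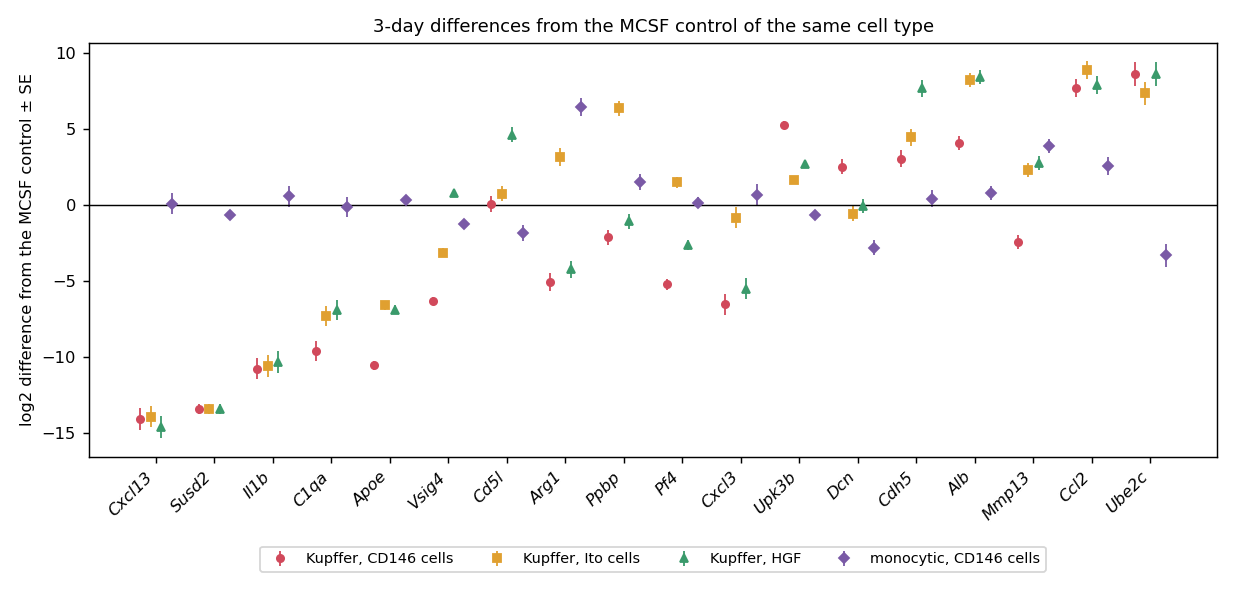
Log2 differences from the MCSF control of the same cell type at 3 days, ± SE, for Kupffer cells with CD146 cells (red), Ito cells (yellow) or HGF (green) and for monocytic macrophages with CD146 cells (violet). Arg1 is below the control with CD146 cells and HGF and above it with Ito cells and in monocytic macrophages, and Vsig4 is lowest with CD146 cells.

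Against Ito cells, 300 genes were higher with CD146 cells (1.54%) and 301 lower (1.54%), 601 in all (3.08%). The largest differences lay on the lower side. Ppbp and Pf4, chemokines of platelets that macrophages also make, averaged 5.32 ± 0.26 and 11.89 ± 0.33 with CD146 cells and 13.79 ± 0.53 and 18.61 ± 0.37 with Ito cells, differences of -8.47 ± 0.50 and -6.72 ± 0.36. Arg1 was at 4.50 ± 0.68 against 12.67 ± 0.34 (-8.17 ± 0.59, adjusted p = 4.47e-13). S100a8, an alarmin of neutrophils and monocytes, the chemokine Ccl8 and the neutrophil attractant Cxcl3 were lower too, with differences of -6.07 ± 0.57, -6.00 ± 0.50 and -5.69 ± 0.69. The CD146 means of Arg1 and Ccl8 were below the negative controls, so their sizes are fitted values with no measured level on one side, and the same holds for Upk3b with Ito cells. Pltp, which transfers phospholipids between lipoproteins, was higher with CD146 cells by 3.97 ± 0.70, at 10.43 against 6.46. Cxcl10 was higher by 3.69 ± 0.61, Upk3b, a uroplakin, by 3.62 ± 0.28, Cd72, an inhibitory receptor, by 3.51 ± 0.61, the actin bundler Fscn1 by 3.47 ± 0.53 and Aebp1, a matrix protein of fibroblasts, by 3.36 ± 0.37. Of the Ito cell and fibroblast list, 9 of 21 genes were higher with CD146 cells than with Ito cells and none lower. No gene of the cell cycle list passed. The total was 351 without replicate 1 of the CD146 group and 393 without replicate 3 of the Ito group, and 1839 in a fit to these 6 arrays alone.

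Against HGF, 62 genes were higher with CD146 cells (0.318%) and 157 lower (0.805%), 219 in all (1.12%). Vsig4 was lower, with 3.65, 3.41 and 3.70 on the CD146 arrays and a mean of 10.69 ± 0.67 with HGF (-7.10 ± 0.29, adjusted p = 1.37e-21), which puts it below the negative controls with CD146 cells and above them with HGF. Other Kupffer cell genes lay on the same side, Spic with -4.83 ± 0.60 (a fitted value, since its CD146 mean was below the negative controls) and Cd5l with -4.54 ± 0.51, and in all 7 of the 20 identity genes were lower than with HGF and none higher. The collagenase gene Mmp13 (-5.23 ± 0.45), Cdh5 (-4.64 ± 0.55) and Alb (-4.34 ± 0.47) were lower as well, and so were 9 of 18 hepatocyte genes. Higher with CD146 cells were Slc6a12, a betaine transporter (3.81 ± 0.64), Slco4a1, an organic anion transporter (2.92 ± 0.50), Dcn (2.60 ± 0.48), Upk3b (2.56 ± 0.28), the interferon-induced gene Ifi44l (2.55 ± 0.25, below the negative controls with HGF) and Gpm6a, a membrane glycoprotein (2.23 ± 0.28). The total was 134 without replicate 2 of the CD146 group and 123 in a fit to these 6 arrays alone.

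Monocytic macrophages with CD146 cells differed from their own control for 468 genes (2.40%), 237 higher (1.22%) and 231 lower (1.18%), and for 510 without replicate 3 of the control. The difference between the responses passed for 3545 genes (18.2%), with 1880 (9.64%) more positive in Kupffer cells and 1665 (8.54%) more negative. Without replicate 3 of the monocytic control it passed for 3055. Cxcl13 read 14.84, 15.14 and 17.16 in the monocytic control and 15.67, 15.86 and 15.81 with CD146 cells, and the difference of the responses was -14.16 ± 1.01. Arg1 rose in monocytic macrophages (6.41 ± 0.59, or 6.68 ± 0.65 without replicate 3 of the control) and fell in Kupffer cells, a difference of -11.48 ± 0.83 (adjusted p = 7.05e-14). Susd2, Ly6i, Cfb and Il1b followed with -12.75 ± 0.46, -12.50 ± 0.83, -11.92 ± 0.90 and -11.32 ± 1.01. On the positive side stood genes of the cell cycle: Ube2c (11.92 ± 1.08), Cdca3 (10.56 ± 1.09), Ccna2 (10.37 ± 1.12), Plk1 (9.78 ± 1.07), Rrm2 (9.52 ± 0.97) and Pbk, a mitotic kinase (9.51 ± 0.95). The monocytic control was uneven here, with Ube2c at 5.77, 5.73 and 12.35 and the mean of the cell cycle list at 6.52, 6.79 and 10.98. Without replicate 3, which stood apart, the difference was 9.72 ± 0.47 for Ube2c, 7.76 ± 0.62 for Plk1 and -14.88 ± 1.02 for Cxcl13. Of the cell cycle list, 27 of 28 genes had the higher response in Kupffer cells with and without that array, with a median of 6.15 with it and 4.95 without it. Of the interferon list, 19 of 25 genes had the lower response in Kupffer cells, and 20 without that array.

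At 1 day CD146 cells had changed 737 Kupffer cell genes (3.78%), 258 up (1.32%) and 479 down (2.46%), and 1063 without replicate 1 of the control of 1 day. The response of 3 days differed from it for 3435 genes (17.6%), 1864 more positive (9.56%) and 1571 more negative (8.05%), and for 3146 without that array. Krt7 was lower at 1 day (-2.54 ± 0.50, or -1.74 ± 0.48 without that array) and higher at 3 days, a difference of 12.06 ± 0.70. Clu, Lmo7, Ccl7, Ccl2 and Emp1 followed with 11.37 ± 0.73, 10.54 ± 0.71, 10.30 ± 0.93, 8.81 ± 0.83 and 8.42 ± 0.34. For Clu, Lmo7, Ccl7, Ccl2 and Emp1, but not for Krt7, the means differed more between times in MCSF than with CD146 cells. Krt7 went from 9.63 ± 1.78 to 3.91 ± 0.32 in MCSF and from 7.10 ± 0.18 to 13.43 ± 0.39 with CD146 cells. Emp1 went from 15.32 ± 0.46 at 1 day to 6.56 ± 0.18 at 3 days in MCSF and from 14.54 ± 0.08 to 14.21 ± 0.19 with CD146 cells. Ccl2 likewise went from 18.01 ± 0.77 to 9.20 ± 0.14 in MCSF and from 16.87 ± 0.15 to 16.87 ± 0.05 with CD146 cells. Cxcl13 stood at 10.34 ± 2.80 and then 19.51 ± 0.08 in MCSF and at 13.17 ± 0.47 and then 5.42 ± 0.44 with CD146 cells, and the difference of responses was -16.92 ± 1.01. The responses of Prg4, Susd2, Slc7a2, Cfb and Lcn2 were lower at 3 days than at 1 day too, with differences of -13.24 ± 1.30, -13.12 ± 0.46, -12.80 ± 1.10, -12.00 ± 0.90 and -11.63 ± 1.11. Where a level in a difference of responses, between times or cell types, lies below the negative controls, as for Susd2, the size is a fitted value. Of the cell cycle list, 26 of 28 genes had the higher response at 3 days. The control of 1 day was uneven, with Prg4 at 5.85, 13.80 and 14.29 and Slc7a2 at 5.29, 12.14 and 12.15. Without its replicate 1, which stood apart, the differences were -10.51 ± 0.48 for Prg4, -10.51 ± 0.42 for Slc7a2, -15.34 ± 0.76 for Cxcl13 and 11.27 ± 0.64 for Krt7, and 25 of the 28 cell cycle genes had the higher response.

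**Figure D5:**
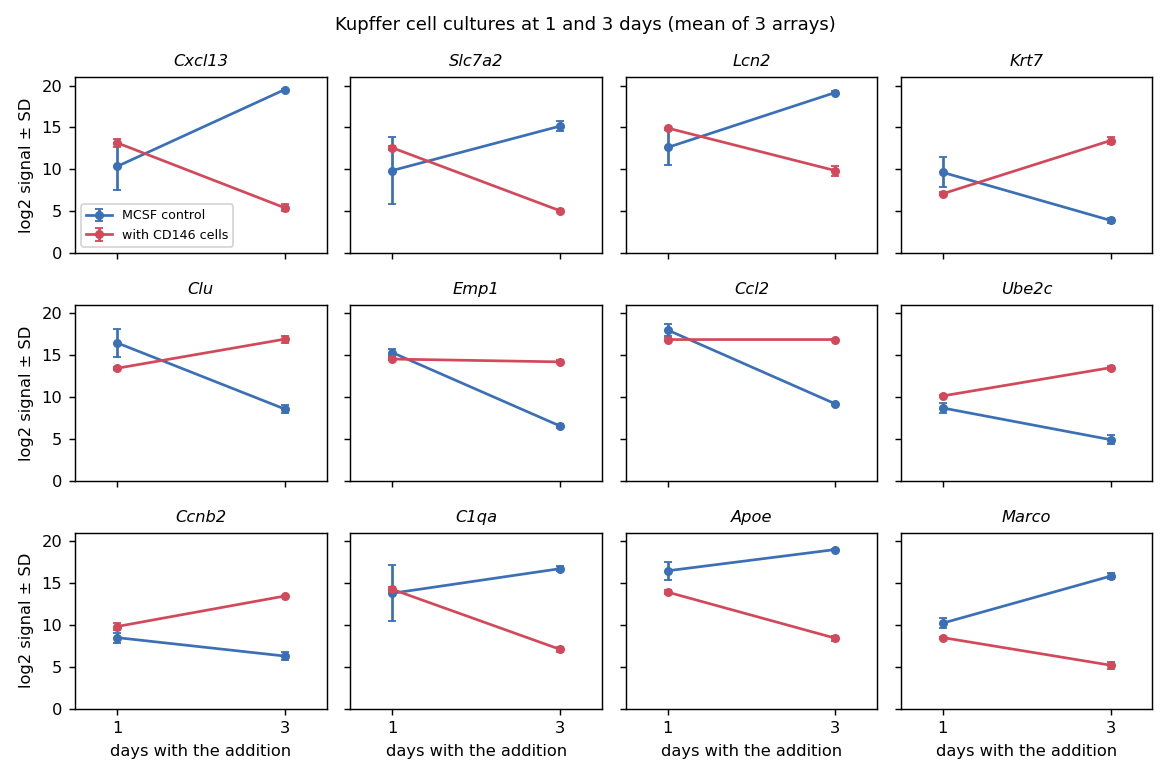
Log2 signal (mean ± SD of 3 arrays) of 12 genes in Kupffer cell cultures at 1 and 3 days, counted after the first day in MCSF, in MCSF (blue) and with CD146 cells (red). Emp1 and Ccl2 are near their mean of 1 day with CD146 cells and lower at 3 days in MCSF, whereas Cxcl13, Slc7a2 and Lcn2 have higher means at 3 days in MCSF and lower means with CD146 cells.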

How the data were processed

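RNA of mouse macrophage cultures was hybridised to Affymetrix arrays, 1 array per sample. The log2 signals of the probe sets were deposited by the authors after RMA summarisation, with the Transcriptome Analysis Console named beside it per the submitters' processing notes. Its version and genome build are not given in the sources used here, nor is it stated whether all arrays were normalized together. The log2 values run from 0.88 to 19.93. The table held 28846 probe sets. The 6640 control probe sets stayed out of the tests, and 2634 without a gene symbol were fitted separately. Genes with several probe sets (55) took the one with the highest mean, which left 19505 genes, all found in the RefSeq table of GRCm38.p6 used for names and promoters. A filter on level was not applied.

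Each gene was fitted in limma 3.58.1 (R 4.3.3) with 1 mean for each of 16 groups of 3 arrays and default empirical Bayes moderation. Tests were two-sided, with Benjamini-Hochberg adjustment over all genes within each comparison and a threshold of 0.05. The number of arrays limits the precision.

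The members and the 51 gene lists were chosen with earlier results of these data known. The rule for named genes took up to 15 largest rises and falls without overlap between groups, up to 6 members of a list by adjusted p and members that did not pass, a fixed set of Kupffer cell, endothelial and cytokine genes, and up to 6 genes each way for the other comparisons. Gene models without a name, and families of near-identical genes such as histones and stefins, were skipped. Of the listed symbols, 76 entries were not measured and not used here.

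The fit was tested on simulated data. Alternatives were quantile normalization, median centring, leaving out the dimmest 25 percent of genes, trend and robust moderation, weights for each array, a block for the replicate number, a minimum of 2-fold, a fit to the compared arrays alone, each array left out in turn and, chosen after seeing the data, leaving out the 3 arrays that stand apart. Promoter windows were searched on both strands in Python 3.11.15, and matplotlib 3.10.9 drew the figures.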

Additional observations from a re-analysis of the deposited data

Results flagged for a closer look

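The response of Kupffer cells to CD146 cells at 3 days differed from that of monocytic macrophages, by the limma test of the difference itself, for 12 genes named for it. The difference of responses was 11.92 ± 1.08 for Ube2c, 10.56 ± 1.09 for Cdca3, 10.37 ± 1.12 for Ccna2, 9.78 ± 1.07 for Plk1, 9.52 ± 0.97 for Rrm2 and 9.51 ± 0.95 for Pbk. It was -14.16 ± 1.01 for Cxcl13, -12.75 ± 0.46 for Susd2, -12.50 ± 0.83 for Ly6i, -11.92 ± 0.90 for Cfb, -11.48 ± 0.83 for Arg1 and -11.32 ± 1.01 for Il1b. Replicate 3 of the monocytic control, which stood apart, enters all of these values, and without it they were 8.33 ± 0.46 for Cdca3, 8.11 ± 0.51 for Ccna2, 7.67 ± 0.54 for Rrm2 and 7.63 ± 0.47 for Pbk. For the others without it, they were -13.53 ± 0.33 for Susd2, -12.93 ± 0.86 for Ly6i, -12.72 ± 0.88 for Cfb, -11.75 ± 0.88 for Arg1 and -11.16 ± 1.08 for Il1b.

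The response of Kupffer cells at 3 days differed from that at 1 day, again by the test of the difference, for 12 genes. The difference was 12.06 ± 0.70 for Krt7, 11.37 ± 0.73 for Clu, 10.54 ± 0.71 for Lmo7, 10.30 ± 0.93 for Ccl7, 8.81 ± 0.83 for Ccl2 and 8.42 ± 0.34 for Emp1. It was -16.92 ± 1.01 for Cxcl13, -13.24 ± 1.30 for Prg4, -13.12 ± 0.46 for Susd2, -12.80 ± 1.10 for Slc7a2, -12.00 ± 0.90 for Cfb and -11.63 ± 1.11 for Lcn2. Without replicate 1 of the control of 1 day the values were 10.57 ± 0.67 for Clu, 9.75 ± 0.65 for Lmo7, 10.68 ± 0.96 for Ccl7, 9.24 ± 0.85 for Ccl2, 8.22 ± 0.36 for Emp1, -13.22 ± 0.49 for Susd2, -10.80 ± 0.76 for Cfb and -10.46 ± 1.04 for Lcn2. Every group here had 3 arrays, too few for a test of single outlying arrays within a group.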

How the results depend on the processing

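Against the MCSF control, the count of 5147 genes stayed within 1.5 times under every alternative, and ran from 4379 to 5071 when each array was left out in turn. Against Ito cells the count of 601 was 2787 with array weights, 1839 with only the arrays compared and 1306 without the 3 arrays that stand apart, and 351 to 516 with each array left out. Against HGF the count of 219 was 952, 123 and 565 under the same settings, and 134 to 305. The difference between cell types ran from 3055 to 3595 with each array left out. The difference between times was 6198 with array weights, against 3435, and ran from 3049 to 3623. The cause of these shifts was not tested. With the replicate number as a block, which does not pair these samples (same-numbered deviations from the group means correlated at -0.15, -0.05 and -0.13 in the first comparison, and 0 of 3 samples correlated best with its own number), the counts were 5118, 579, 215, 3529 and 3406. Of the 274 called genes open to naming, 256 stayed past the threshold under each alternative run on them, and none of the 274 reversed. The 2-fold minimum was run on the count only, where it gave 3793, and leaving out the dimmest genes left 271 of the 274. Signal over background limits what can be read: a dim group gives only a bound, and 13 of the 5147 genes had a group mean within 1 of the largest group mean.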

Other observations

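Several genes best known from the mesothelium, the lining of the liver surface and body cavities, were higher with CD146 cells. They were chosen after their values were seen and are given as values only. Upk3b read 3.64, 3.47 and 3.36 in the control and 9.03, 8.32 and 8.84 with CD146 cells, with means of 5.11 with Ito cells, 6.17 with HGF and 3.98 in the control of 1 day. Gpm6a read 5.57, 5.74 and 5.40 and then 9.73, 9.35 and 9.27. Msln, mesothelin, averaged 3.68 ± 0.06 and 6.57 ± 0.45, Upk1b 3.45 in the control with 8.24, 7.86 and 7.88 on the CD146 arrays, Lrrn4 3.99 ± 0.44 and 7.18 ± 0.32, and the keratins Krt8 and Krt18 4.01 ± 0.18 and 3.70 ± 0.40 in the control and 9.71 ± 0.87 and 9.14 ± 0.14 with CD146 cells. Wt1 stayed below the negative controls (2.96 and 4.31), as did Calb2, Podxl and Tbx18. With HGF, Msln averaged 7.95 ± 0.31 and Krt18 11.95 ± 0.80, above the CD146 cultures. The part of such cells in the cultures was not tested.

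Of the 2634 transcript probe sets without a gene symbol, 440 differed between the groups, 262 higher and 178 lower with CD146 cells. They were fitted and adjusted apart from the named genes. The share was smaller than among the named genes, of which 26.4% differed, 14.0% higher and 12.4% lower.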
